A study of Homo sapiens with 12 samples.

Results

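Collagen genes were taken as every gene in the deposited count tables whose symbol reads COL, a number, A and a number. The rule found 43 genes of 23228, and each of the 43 is accounted for below. By the supramolecular form of the proteins they fall into 11 fibrillar chains, 9 chains of basement membranes, 4 transmembrane chains, 10 fibril-associated chains, 6 chains of beaded filaments and their relatives, and 3 short chains or network formers. The RNA came from MDA-MB-468, an established basal, triple-negative breast cancer line, in 4 groups of 3 libraries that carry the letters A, B and C. One group received both ipatasertib, an inhibitor of the kinase AKT, and tazemetostat, an inhibitor of the histone methyltransferase EZH2. One received tazemetostat, one ipatasertib and one DMSO, the solvent. Each drug was used at 5 µM. Tazemetostat or DMSO was given for 5 days and kept on, after which ipatasertib was added to its groups as the medium was changed to one with 2% serum, and all cells were collected 24 hours later. Exposure to tazemetostat was therefore longer than exposure to ipatasertib. All libraries come from 1 line, and the labels do not say whether libraries of a group came from separate cultures, so p-values measure the spread between libraries.

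Collagens are secreted or membrane proteins built from chains wound into a triple helix, and each gene encodes its own chain. EZH2 places the repressive mark H3K27me3 on chromatin, and AKT carries growth factor signals to growth and metabolism. In breast epithelium, type IV collagen forms the network of the basement membrane on which the cells rest, while most of the fibrillar collagen of breast tissue is made by fibroblasts. The type IV genes lie in pairs, head to head, with the starts of both genes of a pair close together and pointing away from each other.

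Promoter windows, 250 bases before to 50 bases after the gene start, are shown for the genes on which the results turn. They come from RefSeq, build GRCh38.p14, which held a window for 31 of the 43 genes. Capitals mark each CG dinucleotide. The windows of COL4A1 and COL4A2 share 226 bases, those of COL4A3 and COL4A4 share 82, and those of COL4A5 and COL4A6 share 121, so 1 window is printed for each pair, followed by those of COL12A1, COL5A3 and COL17A1.
COL4A1, chr13:110307108-110307407, minus strand: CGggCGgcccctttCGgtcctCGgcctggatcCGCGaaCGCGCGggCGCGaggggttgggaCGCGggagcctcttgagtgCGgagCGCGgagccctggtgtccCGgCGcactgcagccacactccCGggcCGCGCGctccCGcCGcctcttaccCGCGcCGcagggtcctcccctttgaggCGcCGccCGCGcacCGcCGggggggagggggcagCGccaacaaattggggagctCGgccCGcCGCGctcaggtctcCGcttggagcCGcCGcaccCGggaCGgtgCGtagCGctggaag
COL4A4, chr2:227164156-227164455, minus strand: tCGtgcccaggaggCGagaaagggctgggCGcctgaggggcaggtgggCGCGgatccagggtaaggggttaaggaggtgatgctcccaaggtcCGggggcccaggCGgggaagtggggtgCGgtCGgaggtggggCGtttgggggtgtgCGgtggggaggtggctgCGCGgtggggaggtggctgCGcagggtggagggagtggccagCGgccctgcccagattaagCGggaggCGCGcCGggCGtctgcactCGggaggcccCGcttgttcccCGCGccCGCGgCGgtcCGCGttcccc
COL4A5, chrX:108439588-108439887, plus strand: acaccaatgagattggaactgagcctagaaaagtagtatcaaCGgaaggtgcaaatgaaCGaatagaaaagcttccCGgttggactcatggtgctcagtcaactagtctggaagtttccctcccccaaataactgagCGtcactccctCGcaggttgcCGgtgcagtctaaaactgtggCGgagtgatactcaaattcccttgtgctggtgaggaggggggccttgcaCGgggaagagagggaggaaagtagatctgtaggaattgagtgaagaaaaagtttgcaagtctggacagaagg
COL12A1, chr6:75206004-75206303, minus strand: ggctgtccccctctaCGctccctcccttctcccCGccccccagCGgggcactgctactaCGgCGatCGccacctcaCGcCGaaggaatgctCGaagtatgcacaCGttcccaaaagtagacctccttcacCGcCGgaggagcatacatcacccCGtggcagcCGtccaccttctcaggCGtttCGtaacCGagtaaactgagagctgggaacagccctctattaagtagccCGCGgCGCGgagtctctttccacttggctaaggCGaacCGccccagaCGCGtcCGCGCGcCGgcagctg
COL5A3, chr19:10010455-10010754, minus strand: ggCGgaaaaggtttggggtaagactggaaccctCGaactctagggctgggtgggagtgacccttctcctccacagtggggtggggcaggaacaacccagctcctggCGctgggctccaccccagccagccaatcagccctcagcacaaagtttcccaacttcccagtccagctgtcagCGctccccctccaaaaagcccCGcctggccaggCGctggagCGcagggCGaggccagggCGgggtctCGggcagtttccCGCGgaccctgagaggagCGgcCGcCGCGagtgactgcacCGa
COL17A1, chr10:104085831-104086130, minus strand: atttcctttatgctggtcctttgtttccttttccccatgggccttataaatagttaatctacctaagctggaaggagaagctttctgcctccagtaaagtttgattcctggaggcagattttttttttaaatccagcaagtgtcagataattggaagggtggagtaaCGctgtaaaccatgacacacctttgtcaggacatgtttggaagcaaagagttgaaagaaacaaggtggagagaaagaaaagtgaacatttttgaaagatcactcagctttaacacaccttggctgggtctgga
The COL4A1 window held 45 CG dinucleotides, the COL4A4 window 29, the COL12A1 window 29 and the COL5A3 window 17. The COL4A5 window held 8 and the COL17A1 window 1. The median was 22 CG over the 31 collagen windows and 14 over the 27305 windows of all genes. The collagen windows ranged from 1 to 46, the latter for COL18A1, which did not pass with tazemetostat against DMSO. The relation of CG counts to the drug changes was not tested. These are counts of letters, and no methylation or binding was measured at the windows.

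Counts in genes ranged from 12981622 to 17948209 per combination library, from 19023947 to 26070000 per tazemetostat library, from 18926477 to 25468348 per ipatasertib library and from 22682755 to 28746965 per DMSO library. At these depths 3 counts are worth 0.104 to 0.231 CPM on unadjusted totals, and values near that level rest on a few reads. Apart from this floor and the filter level below, CPM are counts scaled to the TMM-adjusted total of each library. The A library stood apart in every group. Its counts differed from those of B and C by a chi-square of 4.36 to 15.5 per degree of freedom over genes, against 2.41 to 3.61 between B and C, so results that end without the A libraries are given both ways. With DMSO, EGFR averaged 1065 ± 52.8 CPM and KRT5, a basal keratin, 1718 ± 74.3 CPM (SD, n = 3). Other keratins averaged 1654 (KRT8), 1165 (KRT18), 219 (KRT14), 74.4 (KRT16) and 53.4 CPM (KRT6B). ESR1, the estrogen receptor, averaged 1.71 ± 0.419 CPM and PGR, the progesterone receptor, had no read. ERBB2, the third receptor of the triple-negative label, was not looked at.

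Collagen RNA as a whole was more abundant in both groups that received tazemetostat. The 43 genes together took 259, 232 and 236 CPM in the combination libraries and 220, 252 and 252 CPM in the tazemetostat libraries. They took 149, 141 and 149 CPM in the ipatasertib libraries and 133, 147 and 146 CPM in the DMSO libraries. Every library with tazemetostat lay above every library without it, and the ipatasertib and DMSO libraries overlapped. In bulk RNA, a change in the number of cells that express a gene and a change in the RNA per cell cannot be told apart.

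The classes differed in how their summed levels stood between groups. Basement membrane chains summed to 128 ± 10.1 CPM in the combination, 154 ± 11.9 with tazemetostat, 103 ± 3.57 with ipatasertib and 94.1 ± 4.33 with DMSO (SD, n = 3). Fibril-associated chains summed to 83.8 ± 2.15, 51.7 ± 3.07, 24.9 ± 0.729 and 26.1 ± 1.42 CPM in the same order. Fibrillar chains, which make up the bulk of collagen in most connective tissues, summed to only 20.7 ± 1.98, 27.8 ± 2.66, 12.9 ± 1.58 and 17.6 ± 1.70 CPM. Transmembrane chains summed to 4.85 ± 0.369, 3.54 ± 0.431, 4.63 ± 0.287 and 3.09 ± 0.858 CPM, and every library with ipatasertib, at 4.34 to 5.26 CPM, lay above every library without it, at 2.16 to 3.95 CPM.

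A few genes carried most of the RNA. COL18A1 took 17.9% of collagen CPM in the combination, 24.9% with tazemetostat, 37.3% with ipatasertib and 41.6% with DMSO. COL12A1 took 23.2%, 10.2%, 3.58% and 2.25% in the same order, and had the largest share of all members in the combination. Levels were also set per kilobase of the longest coding transcript in GENCODE v29, an approximate length since the annotation used for counting is not known. In the combination COL9A2 averaged 6.90 CPM per kb, COL18A1 6.61, COL4A5 4.82 and COL12A1 4.79, against 5.06, 8.96, 4.09 and 0.272 CPM per kb with DMSO. Between the libraries of the combination COL9A2 overlapped with COL18A1, and COL4A5 with COL12A1.

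**Figure D1:**
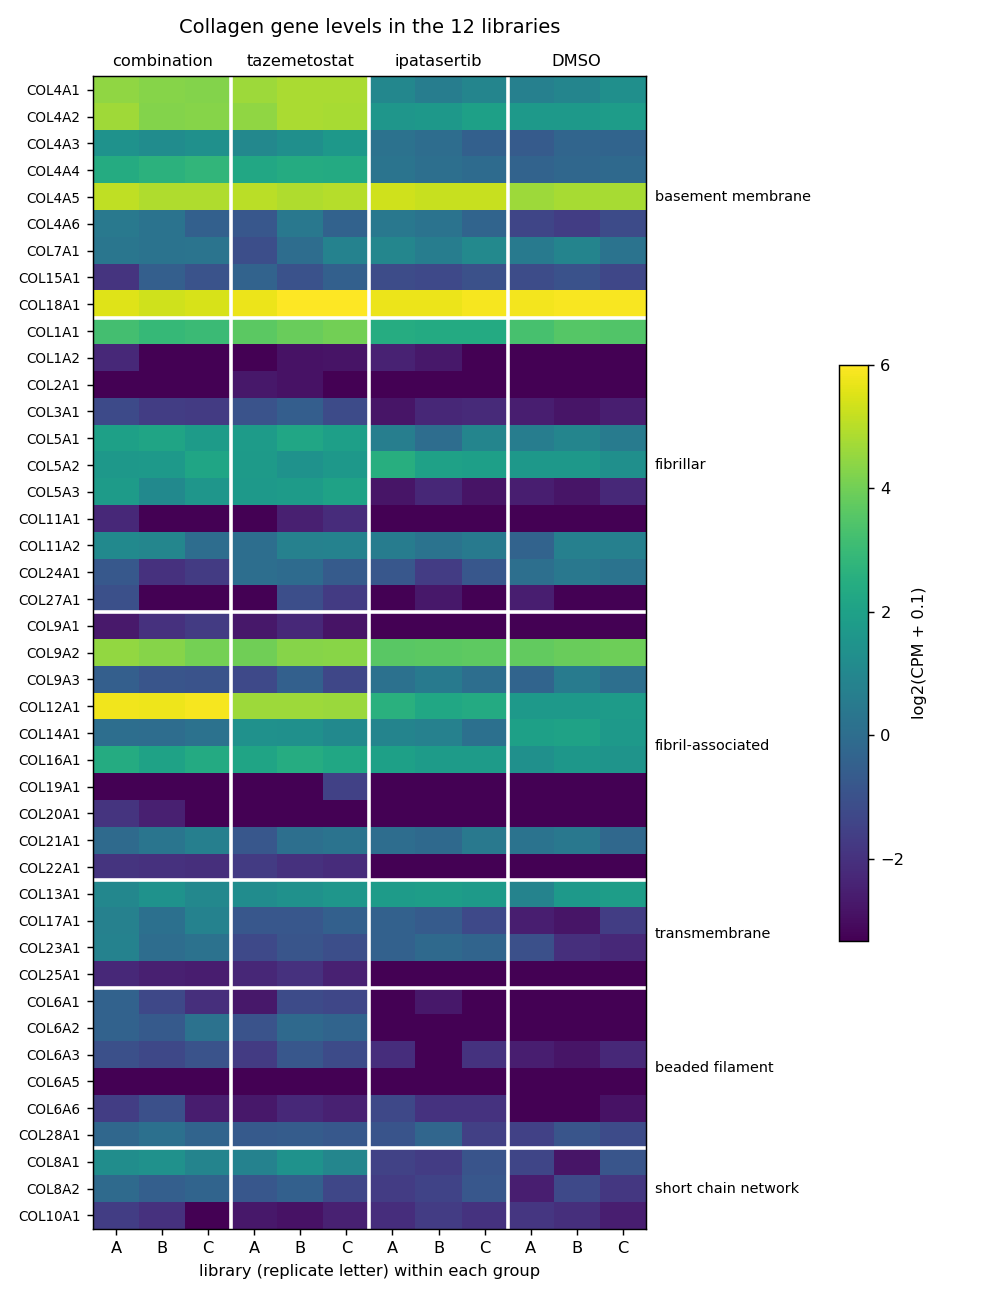
Level of each of the 43 collagen genes, grouped by class, in the 12 libraries (columns A, B and C within each group), as log2(CPM + 0.1) on the colour scale. COL4A1 to COL4A4, COL12A1 and COL5A3 are brighter in the combination and tazemetostat columns than in the ipatasertib and DMSO columns, and 15 genes, such as COL1A2 and COL2A1, are dark in nearly all columns.

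A low-count filter over all libraries left 28 of the 43 genes for testing, 14 fell below it and COL6A5 had no read in any library. The filter favours genes that are high in at least 1 group. Its level was 0.441 CPM on unadjusted totals. In the combination 25 members reached it in all 3 libraries, 22 in tazemetostat, 20 in ipatasertib and 19 in DMSO. A gene that passed only through a treated group had to differ, so the counts below are descriptions of these 28 genes and not of the family. COL4A6, COL5A3, COL6A2, COL8A1, COL8A2, COL17A1, COL23A1 and COL28A1 reached that level only in treated groups, and their p-values against DMSO carry the same limit. COL24A1 reached it only with tazemetostat and DMSO, and COL9A3 only with ipatasertib and DMSO, so the p-values of their falls carry it too. So does any p-value between a group that reached the level and one that did not, such as COL17A1 between the combination and ipatasertib. COL15A1 reached it in no single group, and was tested on its reads over several. With tazemetostat, 16 of the 28 were higher than with DMSO and 2 lower at an edgeR adjusted p under 0.05. Over all 14571 genes tested in that comparison, 47.2% passed, 25.9% higher and 21.3% lower. With the combination, 17 of the 28 were higher and 5 lower than with DMSO, where 64.4% of all genes passed, 34.4% higher and 30% lower.

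Fewer of them passed with ipatasertib alone, a difference in counts that was not itself tested. Against DMSO, 7 of the 28 were higher and 3 lower, where 47.1% of all genes passed, 24% higher and 23.1% lower. The median log2 fold change of the 28 was 1.05 with the combination, 0.73 with tazemetostat and 0.16 with ipatasertib, against medians over all genes of 0.03, 0.01 and 0.00. These 3 comparisons share the DMSO libraries. On top of ipatasertib, tazemetostat left 14 of the 28 higher and 4 lower, where 44.9% of all genes passed. On top of tazemetostat, ipatasertib left 3 higher and 5 lower, where 46.3% passed.

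**Figure D2:**
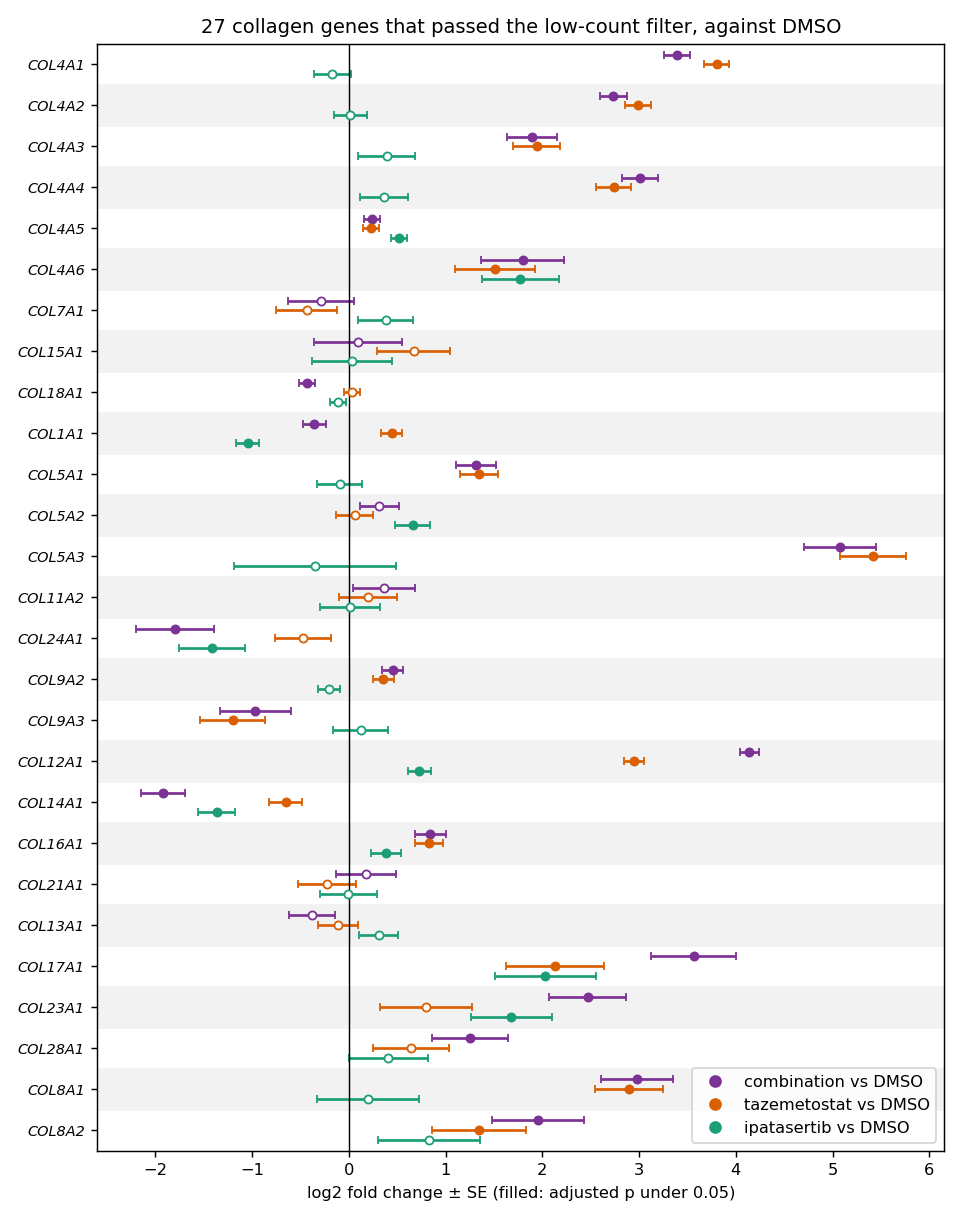
The log2 fold change against DMSO (horizontal axis, bars show the SE) of 27 collagen genes, for the combination, tazemetostat and ipatasertib, with filled points at an edgeR adjusted p under 0.05. COL6A2, without a read in DMSO, is not drawn. COL5A3 lies farthest to the right at 5.08 for the combination and 5.42 for tazemetostat, and COL14A1 farthest to the left at -1.92 for the combination.

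In the basement membrane class the largest gains in CPM with tazemetostat were in COL4A1 and COL4A2, the chains of the most common type IV network. COL4A1 had 21.8, 19.6 and 19.4 CPM in the combination, 24.7, 28.3 and 27.8 CPM with tazemetostat, 1.87, 1.44 and 1.77 CPM with ipatasertib and 1.56, 1.82 and 2.41 CPM with DMSO. The libraries with tazemetostat lay about an order of magnitude above the rest, and those of ipatasertib and DMSO overlapped. Its log2 fold change against DMSO was 3.80 ± 0.13 (SE) with tazemetostat (edgeR adjusted p = 5.41e-16) and 3.39 ± 0.14 with the combination (edgeR adjusted p = 2.99e-15). Ipatasertib alone gave -0.17 (edgeR adjusted p = 0.485). In the combination COL4A1 was lower than with tazemetostat alone, by a log2 fold change of -0.41 ± 0.10 (edgeR adjusted p = 0.002).

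COL4A2 followed its neighbour. It had 25.3, 19.4 and 19.9 CPM in the combination, 22.0, 27.8 and 27.2 CPM with tazemetostat, 2.92, 3.04 and 3.82 CPM with ipatasertib and 3.19, 3.09 and 3.44 CPM with DMSO. Against DMSO the log2 fold change was 2.99 ± 0.13 with tazemetostat (edgeR adjusted p = 5.36e-14) and 2.73 ± 0.14 with the combination (edgeR adjusted p = 1.66e-13). The combination and tazemetostat libraries overlapped, at -0.25 (edgeR adjusted p = 0.0681), but without the A libraries COL4A2 too was lower in the combination, at -0.49 (edgeR adjusted p = 6.21e-05). Per kilobase, the ratio of COL4A1 to COL4A2 was 0.931 ± 0.0753 in the combination, 1.03 ± 0.0587 with tazemetostat, 0.517 ± 0.0982 with ipatasertib and 0.581 ± 0.103 with DMSO (SD, n = 3). The ratio was thus higher in every library with tazemetostat than in any library without it. No test of the ratios was run. The RefSeq starts of the pair lie 127 bases apart. Antisense transcripts are annotated at COL4A2, and reads from both strands cannot be told apart here, as no source states whether strand was used in counting.

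COL4A3 and COL4A4, chains of the network known from the kidney glomerulus, were low with DMSO and higher with tazemetostat. COL4A3 had 2.60, 2.20 and 2.44 CPM in the combination, 1.94, 2.43 and 3.08 CPM with tazemetostat, 1.05, 0.907 and 0.631 CPM with ipatasertib and 0.532, 0.727 and 0.704 CPM with DMSO. COL4A4 had 5.26, 6.22 and 6.89 CPM in the combination, 4.71, 5.23 and 5.15 CPM with tazemetostat, 1.09, 0.960 and 0.867 CPM with ipatasertib and 0.674, 0.772 and 0.815 CPM with DMSO. For both genes the libraries with and without tazemetostat did not overlap. COL4A3 rose by 1.94 ± 0.24 with tazemetostat (edgeR adjusted p = 8.48e-07) and by 1.90 ± 0.26 with the combination (edgeR adjusted p = 1.33e-06) on the log2 scale. COL4A4 rose by 2.74 ± 0.18 (edgeR adjusted p = 3.39e-11) and 3.01 ± 0.18 (edgeR adjusted p = 3.69e-12) in the same comparisons. Per kilobase, COL4A3 was at 0.496 ± 0.101 of COL4A4 in the combination and 0.607 ± 0.118 with tazemetostat, against 1.09 ± 0.161 with ipatasertib and 1.07 ± 0.0939 with DMSO (SD, n = 3). COL4A4 overlaps the protein-coding gene RHBDD1 in the RefSeq annotation, so some reads may belong to that gene.

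COL4A5 and COL4A6, the pair on the X chromosome, behaved otherwise. COL4A5 had 34.6, 29.7 and 29.4 CPM in the combination, 32.4, 29.7 and 31.3 CPM with tazemetostat, 40.0, 37.0 and 37.2 CPM with ipatasertib and 24.5, 27.3 and 27.7 CPM with DMSO. Ipatasertib libraries were the highest, DMSO libraries the lowest, and the groups with tazemetostat overlapped in between. Against DMSO the log2 fold change was 0.52 ± 0.08 with ipatasertib (edgeR adjusted p = 1.93e-05). It was 0.23 ± 0.08 with tazemetostat (edgeR adjusted p = 0.0249) and 0.24 ± 0.08 with the combination (edgeR adjusted p = 0.0167). Both small rises ended without the A libraries, at 0.15 (edgeR adjusted p = 0.0948) and 0.10 (edgeR adjusted p = 0.278). The tazemetostat call also ended without DMSO library A, tazemetostat library A or tazemetostat library C alone (0.17 to 0.21, edgeR adjusted p from 0.0761 to 0.136), and the combination call without DMSO library A (0.18, edgeR adjusted p = 0.102) or combination library A (0.16, edgeR adjusted p = 0.124). In the combination COL4A5 was lower than with ipatasertib alone, at -0.28 ± 0.08 (edgeR adjusted p = 0.00873).

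COL4A5 also differed in how the drugs combined. The interaction, which is the log2 change from tazemetostat in the presence of ipatasertib minus that in its absence, was -0.51 ± 0.12 (edgeR adjusted p = 0.00967). Of the 28 collagen genes, 1 had a positive and 2 a negative interaction, where 12% of all genes passed, 5.96% with a positive and 6.01% with a negative value. The low COL4A6 ranged from 0.627 to 1.27 CPM in the combination, from 0.471 to 1.23 with tazemetostat, from 0.710 to 1.22 with ipatasertib and from 0.227 to 0.333 with DMSO. Every treated library lay above the DMSO libraries. The log2 fold changes were 1.80 ± 0.43 (edgeR adjusted p = 0.000918), 1.51 ± 0.41 (edgeR adjusted p = 0.00447) and 1.77 ± 0.40 (edgeR adjusted p = 0.000934) in that order. The call with tazemetostat rested on library B, without which it was 0.99 (edgeR adjusted p = 0.0875).

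**Figure D3:**
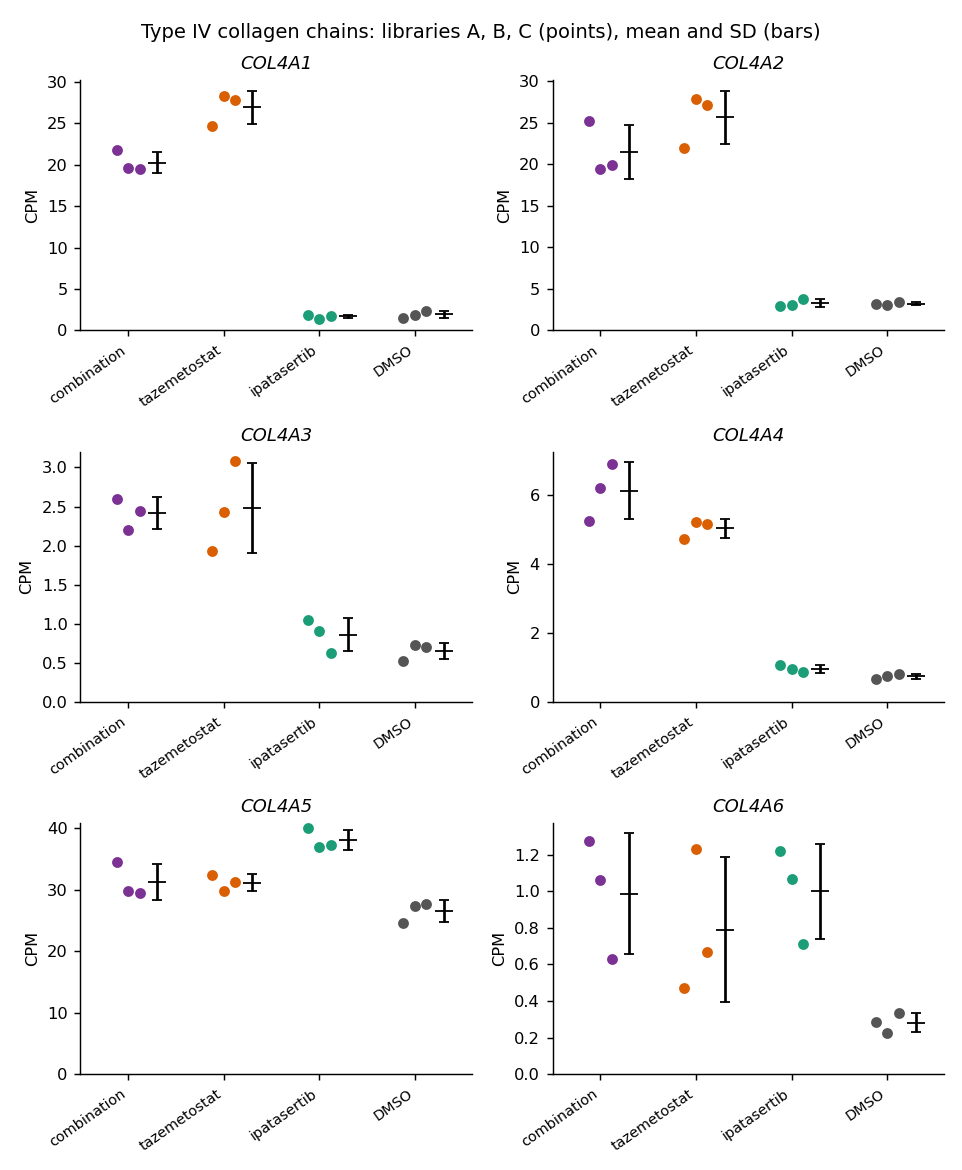
CPM of the 6 type IV collagen chains in each library (points) with the mean and SD of the 3 libraries of a group (bars), 1 panel per gene and each vertical axis starting at 0. COL4A1 to COL4A4 are high in the combination and tazemetostat groups and low in the ipatasertib and DMSO groups, whereas COL4A5 is highest with ipatasertib, between 37.0 and 40.0 CPM.

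In the other basement membrane chains no rise with tazemetostat passed. COL18A1, whose protein carries heparan sulfate chains and releases endostatin, had 47.1, 40.4 and 43.1 CPM in the combination, 52.9, 64.0 and 64.0 CPM with tazemetostat, 52.7, 52.7 and 58.5 CPM with ipatasertib and 56.7, 59.8 and 60.5 CPM with DMSO. Only the combination libraries stood below all others. Its log2 fold change was -0.44 ± 0.08 against DMSO (edgeR adjusted p = 0.000109), -0.47 ± 0.08 against tazemetostat (edgeR adjusted p = 0.0001) and -0.33 ± 0.08 against ipatasertib (edgeR adjusted p = 0.00341). The interaction of -0.36 ± 0.12 passed narrowly (edgeR adjusted p = 0.0486), and the call ended in 11 of 19 alternative settings, where the adjusted p reached 0.158. Those settings include leaving out any 1 library other than tazemetostat A and combination A, with values from -0.38 to -0.30. COL18A1 overlaps SLC19A1 in the annotation. COL7A1, which forms anchoring fibrils, ranged from 0.367 to 2.01 CPM and COL15A1, a relative of COL18A1, from 0.166 to 0.681 CPM over the 12 libraries. With all libraries neither passed in any of the 6 comparisons, and COL7A1 passed as lower with tazemetostat when tazemetostat library C was left out. For COL15A1 every tazemetostat library lay above every DMSO library, at a log2 fold change of 0.67 (edgeR adjusted p = 0.147).

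Among the fibrillar chains, COL1A1, which with COL1A2 forms the type I collagen of skin and bone, was the most abundant and moved in opposite directions with the drugs. It had 9.25, 7.58 and 8.01 CPM in the combination, 12.6, 14.5 and 16.2 CPM with tazemetostat, 5.36, 5.07 and 5.05 CPM with ipatasertib and 9.61, 11.6 and 10.9 CPM with DMSO. Ipatasertib libraries were the lowest and tazemetostat libraries the highest, without overlap with any other group. On the log2 scale the difference from DMSO was -1.05 ± 0.12 with ipatasertib (edgeR adjusted p = 4.38e-07) and 0.44 ± 0.11 with tazemetostat (edgeR adjusted p = 0.0018). With the combination it was -0.35 ± 0.12 (edgeR adjusted p = 0.0136), a call that ended without DMSO library B at -0.31 (edgeR adjusted p = 0.0515). Its interaction of 0.25 did not pass (edgeR adjusted p = 0.342). COL1A2, the partner chain, had 2 reads in the combination, 2 with tazemetostat, 3 with ipatasertib and 0 with DMSO, each summed over 3 libraries, and a count of 0 allows up to 3 reads over the group.

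The type V chains, which regulate the diameter of type I fibrils, did not all move alike. COL5A3 had 3.38, 2.05 and 2.86 CPM in the combination, 3.20, 3.40 and 4.07 CPM with tazemetostat, 0.0435, 0.107 and 0.0394 CPM with ipatasertib and 0.0709, 0.0454 and 0.111 CPM with DMSO. The DMSO values rest on 6 reads in all and the ipatasertib values on 4. Set against DMSO, the log2 fold change was 5.42 ± 0.34 with tazemetostat (edgeR adjusted p = 1.74e-11) and 5.08 ± 0.37 with the combination (edgeR adjusted p = 9.07e-11). COL5A1 had 3.82, 4.24 and 3.41 CPM in the combination, 3.40, 4.48 and 3.74 CPM with tazemetostat, 1.48, 0.907 and 1.81 CPM with ipatasertib and 1.45, 1.82 and 1.37 CPM with DMSO. It rose by 1.35 ± 0.19 with tazemetostat (edgeR adjusted p = 6.65e-06) and by 1.31 ± 0.21 with the combination (edgeR adjusted p = 9.85e-06), with no overlap with the libraries that lacked tazemetostat. COL5A2 had 3.05, 3.18 and 4.39 CPM in the combination, 3.30, 2.58 and 3.03 CPM with tazemetostat, 5.70, 3.90 and 3.78 CPM with ipatasertib and 3.05, 3.04 and 2.41 CPM with DMSO. With all libraries it passed with ipatasertib, at 0.66 ± 0.18 (edgeR adjusted p = 0.00434), and not in the combination, at 0.32 (edgeR adjusted p = 0.171). Without the A libraries both passed, at 0.51 (edgeR adjusted p = 0.0312) and 0.49 (edgeR adjusted p = 0.0435), and without ipatasertib library A at 0.42 it did not (edgeR adjusted p = 0.0722).

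COL24A1, a fibrillar chain of developing bone, was lower in the groups with ipatasertib. It had 0.498, 0.152 and 0.209 CPM in the combination, 0.943, 0.859 and 0.540 CPM with tazemetostat, 0.479, 0.213 and 0.473 CPM with ipatasertib and 0.958, 1.23 and 1.07 CPM with DMSO. Its log2 fold change against DMSO was -1.80 ± 0.40 with the combination (edgeR adjusted p = 0.000506) and -1.41 ± 0.34 with ipatasertib (edgeR adjusted p = 0.0016). With tazemetostat it was -0.48 (edgeR adjusted p = 0.189). COL11A2, a cartilage chain, ranged from 0.674 to 2.05 CPM over the 12 libraries and passed in no comparison. The remaining 5 fibrillar genes, COL1A2, COL2A1, COL3A1, COL11A1 and COL27A1, fell below the filter.

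Transmembrane collagens are held in the cell membrane with their helix outside the cell. COL17A1, a hemidesmosome component of epithelia, had 1.61, 0.985 and 1.67 CPM in the combination, 0.471, 0.485 and 0.623 CPM with tazemetostat, 0.653, 0.534 and 0.315 CPM with ipatasertib and 0.0709, 0.0454 and 0.222 CPM with DMSO. The 4 groups were ordered with the combination highest and DMSO lowest, and the 2 single-drug groups overlapped. Against DMSO the log2 fold change was 3.57 ± 0.44 with the combination (edgeR adjusted p = 3.26e-07), 2.13 ± 0.51 with tazemetostat (edgeR adjusted p = 0.00161) and 2.03 ± 0.52 with ipatasertib (edgeR adjusted p = 0.00285). The DMSO values rest on 9 reads. Without the A libraries the ipatasertib value was 1.48 and no longer passed (edgeR adjusted p = 0.0695). COL17A1 was also higher in the combination than with tazemetostat, at 1.44 ± 0.33 (edgeR adjusted p = 0.00126), and than with ipatasertib, at 1.54 ± 0.34 (edgeR adjusted p = 0.000859).

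COL23A1 had 1.66, 0.910 and 1.04 CPM in the combination, 0.314, 0.448 and 0.374 CPM with tazemetostat, 0.653, 0.800 and 0.710 CPM with ipatasertib and 0.390, 0.136 and 0.111 CPM with DMSO. Both groups with ipatasertib lay above both groups without it. On the log2 scale the difference from DMSO was 2.47 ± 0.40 with the combination (edgeR adjusted p = 1.32e-05) and 1.68 ± 0.42 with ipatasertib (edgeR adjusted p = 0.00222), against 0.80 with tazemetostat (edgeR adjusted p = 0.175). DMSO library A held 11 of the DMSO reads, and libraries B and C 3 each. Without the A libraries the tazemetostat value was 1.71 and passed (edgeR adjusted p = 0.0212), as it did without DMSO library A alone. COL13A1, found at cell contacts and at neuromuscular junctions, had 1.88, 2.58 and 1.95 CPM in the combination, 2.20, 2.5 and 2.87 CPM with tazemetostat, 3.35, 3.57 and 3.31 CPM with ipatasertib and 1.70, 3.09 and 3.52 CPM with DMSO, the highest level among transmembrane chains. With all libraries it passed between the combination and ipatasertib alone, at -0.69 ± 0.23 (edgeR adjusted p = 0.02), and not when combination library A (-0.59, edgeR adjusted p = 0.0728) or C (-0.64, edgeR adjusted p = 0.067) was left out. Against DMSO the combination was at -0.38 (edgeR adjusted p = 0.167), and without the A libraries it passed at -0.56 (edgeR adjusted p = 0.0316), as it did without DMSO library A alone. COL25A1, best known from brain, had 4 reads in the combination and 8 with tazemetostat, and no read in ipatasertib or DMSO.

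COL12A1 was the fibril-associated gene with the largest change and, of the collagen genes, the one with the largest gain in CPM in the combination. Its protein binds along fibrils of type I collagen. COL12A1 had 55.3, 54.8 and 58.5 CPM in the combination, 24.8, 24.9 and 24.1 CPM with tazemetostat, 5.97, 4.64 and 5.16 CPM with ipatasertib and 3.09, 3.13 and 3.33 CPM with DMSO. The 4 groups did not overlap: the combination was highest, then tazemetostat, then ipatasertib, with DMSO lowest. Set against DMSO, the log2 fold change was 4.14 ± 0.10 with the combination (edgeR adjusted p = 4.63e-19), 2.95 ± 0.10 with tazemetostat (edgeR adjusted p = 5.23e-16) and 0.73 ± 0.12 with ipatasertib (edgeR adjusted p = 3.9e-05). Ipatasertib on top of tazemetostat gave 1.19 ± 0.08 (edgeR adjusted p = 6.26e-11). The interaction of 0.46 ± 0.15 passed narrowly (edgeR adjusted p = 0.0412), and the call ended in 12 of 19 alternative settings, where the adjusted p reached 0.131. Those settings include leaving out any 1 library other than ipatasertib A, tazemetostat A and combination A, with values from 0.39 to 0.49.

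COL14A1, which also binds fibrils, went the other way. It had 0.941, 0.910 and 1.04 CPM in the combination, 2.51, 2.46 and 2.04 CPM with tazemetostat, 1.74, 1.60 and 0.985 CPM with ipatasertib and 3.83, 4.0 and 3.22 CPM with DMSO. DMSO libraries were the highest, tazemetostat libraries came next, and the ipatasertib and combination libraries overlapped. Its log2 fold change against DMSO was -1.92 ± 0.23 with the combination (edgeR adjusted p = 1.95e-07), -0.65 ± 0.17 with tazemetostat (edgeR adjusted p = 0.00384) and -1.36 ± 0.19 with ipatasertib (edgeR adjusted p = 5.41e-06).

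COL16A1, a fibril-associated chain, had 5.26, 4.09 and 5.08 CPM in the combination, 4.30, 5.34 and 4.66 CPM with tazemetostat, 3.88, 3.36 and 3.35 CPM with ipatasertib and 2.45, 3.0 and 2.70 CPM with DMSO. It rose by 0.84 ± 0.16 with the combination (edgeR adjusted p = 6.71e-05) and by 0.83 ± 0.15 with tazemetostat (edgeR adjusted p = 8.05e-05) on the log2 scale. The smaller value of 0.39 ± 0.15 with ipatasertib (edgeR adjusted p = 0.0441) held in only 5 of 14 alternative settings and was 0.24 without the A libraries (edgeR adjusted p = 0.308). Leaving out DMSO library A, DMSO library C or any 1 ipatasertib library also ended it, at 0.30 to 0.41 (edgeR adjusted p from 0.0638 to 0.185).

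The type IX chains are known from cartilage, where they coat fibrils of type II collagen. COL9A2 had 22.6, 19.9 and 16.6 CPM in the combination, 15.6, 19.6 and 20.1 CPM with tazemetostat, 12.2, 12.6 and 12.8 CPM with ipatasertib and 13.5, 14.7 and 15.3 CPM with DMSO. Libraries with tazemetostat lay above those without it. The log2 fold change was 0.45 ± 0.11 with the combination (edgeR adjusted p = 0.00128) and 0.35 ± 0.11 with tazemetostat (edgeR adjusted p = 0.0102). The tazemetostat call ended without DMSO library A (0.30, edgeR adjusted p = 0.0554), tazemetostat library B (0.29, edgeR adjusted p = 0.0602) or tazemetostat library C (0.27, edgeR adjusted p = 0.0833). COL9A3 had 0.609, 0.455 and 0.418 CPM in the combination, 0.314, 0.635 and 0.291 CPM with tazemetostat, 1.0, 1.33 and 0.946 CPM with ipatasertib and 0.709, 1.36 and 0.963 CPM with DMSO. It fell by 1.20 ± 0.34 with tazemetostat (edgeR adjusted p = 0.00601). In the combination it was at -0.97 ± 0.37 (edgeR adjusted p = 0.0259), a call that ended without DMSO library B (-0.74, edgeR adjusted p = 0.112), combination library B (-0.93, edgeR adjusted p = 0.0614) or combination library C (-0.86, edgeR adjusted p = 0.0859). COL9A3 overlaps TCFL5 in the annotation. COL9A1, the third chain of type IX collagen, had 6 reads in the combination and 5 with tazemetostat, with no read in ipatasertib or DMSO. COL21A1, another fibril-associated chain, ranged from 0.471 to 1.53 CPM over the 12 libraries and passed in no comparison.

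**Figure D4:**
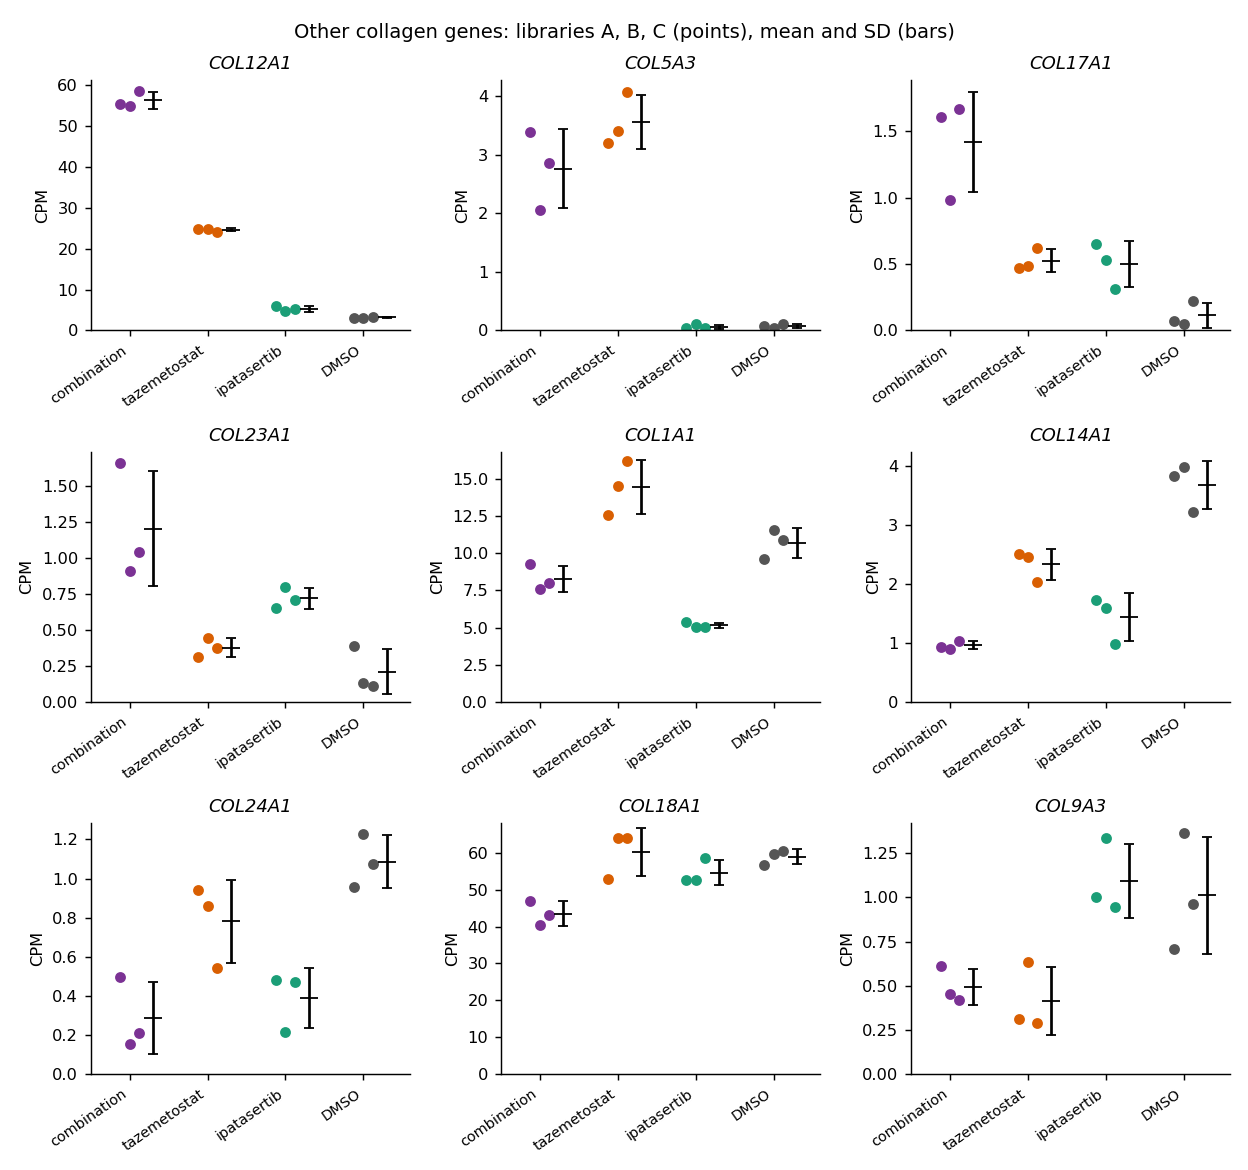
CPM of 9 collagen genes outside type IV in each library (points) with the mean and SD of the 3 libraries of a group (bars), 1 panel per gene and each vertical axis starting at 0. COL12A1 and COL17A1 are highest in the combination, COL5A3 is near 0 in ipatasertib and DMSO, and COL14A1 and COL24A1 are highest in DMSO, at up to 4.0 and 1.23 CPM.

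Of the type VI chains, which build beaded filaments around many cell types, COL6A1 and COL6A2 had at most 1 read in each group without tazemetostat. COL6A2 had 12, 7 and 15 reads in the combination libraries (0.747 ± 0.267 CPM) and 8, 22 and 17 reads in the tazemetostat libraries (0.649 ± 0.207 CPM, SD, n = 3). It had no read in ipatasertib or DMSO. Set against a limit of 3 reads over the DMSO group, the ratio of COL6A2 to DMSO was 19.2 in the combination and 17.3 with tazemetostat. These ratios take the reads of the treated groups as exact. With counting error in both groups, the lower 95% limits of the ratio were 14.8 and 13.5. COL6A2 reached the filter level in the combination alone, so no p-value is given. COL6A1, the partner chain, fell below the filter, with 18 reads in the combination, 17 with tazemetostat, 1 with ipatasertib and 0 with DMSO. Against the same limit the ratio of COL6A1 to DMSO was 10.2 in the combination and 6.26 with tazemetostat, with no test. The lower 95% limits with counting error in both groups were 7.44 and 4.56. COL6A3, the third chain, had 17, 25, 7 and 6 reads in the combination, tazemetostat, ipatasertib and DMSO groups.

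COL28A1, a relative of type VI, ranged from 0.696 to 0.985 CPM in the combination and from 0.248 to 0.454 CPM with DMSO. It passed against DMSO in the combination at 1.25 ± 0.39 (edgeR adjusted p = 0.008), but not without the A libraries, at 1.09 (edgeR adjusted p = 0.0619). The short chains of type VIII form hexagonal networks in the cornea and in vessel walls. COL8A1 had 2.27, 2.5 and 1.74 CPM in the combination, 1.68, 2.58 and 1.83 CPM with tazemetostat, 0.261, 0.213 and 0.434 CPM with ipatasertib and 0.284, 0.0454 and 0.444 CPM with DMSO. It rose by 2.98 ± 0.37 with the combination (edgeR adjusted p = 4.18e-07) and by 2.90 ± 0.35 with tazemetostat (edgeR adjusted p = 7.17e-07), and libraries with and without tazemetostat did not overlap. COL8A2 ranged from 0.606 to 0.831 CPM in the combination, from 0.291 to 0.635 with tazemetostat, from 0.218 to 0.473 with ipatasertib and from 0.0709 to 0.318 with DMSO. It rose by 1.96 ± 0.48 with the combination. COL8A2, like COL6A2, reached the filter level in the combination alone, so no p-value is given for that rise. With tazemetostat COL8A2 was at 1.35 ± 0.48 (edgeR adjusted p = 0.0262), and its replicates overlapped those of DMSO. That value was 0.93 without the A libraries (edgeR adjusted p = 0.161). The tazemetostat call ended as well without DMSO library A (0.92, edgeR adjusted p = 0.145), DMSO library C (1.35, edgeR adjusted p = 0.066) or tazemetostat library B (0.99, edgeR adjusted p = 0.177).

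Of the 43 collagen genes, 40 had at least 1 read in the combination, 41 with tazemetostat, 34 with ipatasertib and 32 with DMSO. The combination libraries had the fewest counts in genes. Genes at an average of 1 CPM or more numbered 20, 17, 15 and 17 in the same order. COL6A5 had no read in any of the 12 libraries, and COL2A1, the cartilage chain, had 2 reads in all, both with tazemetostat. COL3A1, a fibrillar chain of skin and vessels, had 12, 32, 6 and 5 reads in the combination, tazemetostat, ipatasertib and DMSO groups. COL27A1 had 7, 15, 1 and 2 reads in that order. The 7 were all in library A, and the 15 were 0, 10 and 5 in libraries A, B and C. The ratio of tazemetostat to DMSO for COL27A1, 8.28, has a 95% counting interval of 1.93 to 74.6, which leaves out the spread between libraries.

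COL22A1 had 7 reads in the combination, 11 with tazemetostat and none in the groups without it, spread over all 6 libraries. COL11A1 had 2 and 5 reads in the combination and tazemetostat groups, and none in the others. COL19A1 had 6 reads, all in tazemetostat library C, and COL20A1 had 4, all in the combination. COL6A6 had 10, 6, 14 and 1 reads in the combination, tazemetostat, ipatasertib and DMSO groups, and COL10A1, the chain of hypertrophic cartilage, 6, 4, 11 and 10. COL10A1 overlaps NT5DC1 in the annotation. At these counts, a gene without a read is one not detectable at this depth.

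Genes that act on collagen chains were counted too, as lists chosen with results of these data known. The low-count filter admitted some of them only through groups where they were high, such as TLL1 and LAMA1, so the counts below carry its limit. Of 17 tested genes that fold and modify the chains in the endoplasmic reticulum, 4 were higher and 8 lower in the combination than with DMSO, 5 higher and 3 lower with tazemetostat, and 2 higher and 9 lower with ipatasertib. The shares that passed were 70.6%, 47.1% and 64.7% in this order, where 64.4%, 47.2% and 47.1% of all genes passed. LEPREL1, a prolyl 3-hydroxylase, averaged 53.0 ± 2.07 CPM in the combination, 20.7 ± 1.20 with tazemetostat, 20.9 ± 0.483 with ipatasertib and 10.8 ± 0.508 with DMSO (SD, n = 3), a log2 fold change of 2.30 ± 0.08 in the combination (edgeR adjusted p = 2.84e-16). P4HA1, the catalytic subunit of prolyl 4-hydroxylase, which stabilises the helix, fell by 1.05 ± 0.09 in the combination (edgeR adjusted p = 4.17e-10) and by 0.72 ± 0.08 with ipatasertib (edgeR adjusted p = 2.34e-07). P4HA2, its paralog, averaged 18.9 ± 1.0 CPM in the combination, 32.0 ± 0.355 with tazemetostat, 10.2 ± 0.554 with ipatasertib and 19.4 ± 0.985 with DMSO. It thus rose with tazemetostat (0.73 ± 0.08, edgeR adjusted p = 1e-07) and fell by 0.93 ± 0.09 with ipatasertib (edgeR adjusted p = 1.71e-08). The collagen chaperone SERPINH1 averaged 147 ± 18.0 CPM in the combination, 158 ± 7.56 with tazemetostat, 171 ± 12.3 with ipatasertib and 177 ± 13.4 with DMSO.

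Of 9 tested genes that trim or cross-link collagen outside the cell, 5 were higher and 1 lower in the combination than with DMSO, 7 higher and 0 lower with tazemetostat, and 2 higher and 2 lower with ipatasertib. The shares were 66.7%, 77.8% and 44.4%, against the same 64.4%, 47.2% and 47.1% of all genes. LOX, a lysyl oxidase that starts cross-links, averaged 12.1 ± 1.40 CPM in the combination, 21.4 ± 3.46 with tazemetostat, 5.05 ± 0.702 with ipatasertib and 10.1 ± 0.436 with DMSO. The log2 fold change of LOX was 1.08 ± 0.12 with tazemetostat (edgeR adjusted p = 9.9e-08) and -1.01 ± 0.14 with ipatasertib (edgeR adjusted p = 3.22e-06). LOX was thus, like COL1A1, highest on average with tazemetostat and lowest with ipatasertib. TLL1, which cleaves the C-terminal propeptide, averaged 0.816 ± 0.156 CPM with tazemetostat against 0.0602 ± 0.0545 with DMSO (SD, n = 3), a log2 fold change of 3.52 ± 0.51 (edgeR adjusted p = 1.15e-05). TLL1 reached the filter level with tazemetostat alone, so its p-value carries the filter limit. Of 7 secretion genes, CREB3L1, a transcription factor for secretory genes, averaged 0.156 ± 0.152 CPM in the combination, 0.618 ± 0.0534 with tazemetostat, 0.534 ± 0.321 with ipatasertib and 1.11 ± 0.235 with DMSO, and fell by 2.83 ± 0.55 in the combination (edgeR adjusted p = 0.000114). CREB3L1 reached the filter level only with tazemetostat and DMSO, so the p-value of its fall carries that limit too. The other secretion genes that passed were higher: 4 in the combination, 3 with tazemetostat and 3 with ipatasertib. Those that passed in either direction were 71.4%, 42.9% and 57.1% of the list, near the shares of all genes.

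Of 14 tested partners of collagen in the basement membrane, 12 were higher and 2 lower in the combination than with DMSO, 10 higher and 1 lower with tazemetostat, and 9 higher and 0 lower with ipatasertib. These are 100%, 78.6% and 64.3% of the list, against 64.4%, 47.2% and 47.1% of all genes. LAMA1, a laminin chain of early basement membranes, had no read in ipatasertib or DMSO and averaged 1.92 ± 0.691 CPM in the combination and 0.780 ± 0.316 CPM with tazemetostat (SD, n = 3). Of 5 tested collagen receptors, 4 were higher in the combination, 3 with tazemetostat and 2 with ipatasertib, and none was lower. These are 80%, 60% and 40% of 5 genes, against 64.4%, 47.2% and 47.1% of all genes. ITGA2, the integrin chain that binds collagen on epithelial cells, averaged 67.6 ± 6.13 CPM in the combination, 29.7 ± 3.05 with tazemetostat, 28.3 ± 3.19 with ipatasertib and 16.0 ± 1.27 with DMSO, a log2 fold change of 2.07 ± 0.10 in the combination (edgeR adjusted p = 8.14e-14).

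Markers of fibroblasts, the usual source of fibrillar collagen, had summed levels that separated all 4 groups. The 10 markers together took 29.5 to 32.5 CPM in the combination, 21.5 to 22.0 with tazemetostat, 12.6 to 13.6 with ipatasertib and 8.23 to 9.37 with DMSO. The largest part on average was PDGFRA, at 22.7 ± 1.66, 13.2 ± 0.139, 8.68 ± 0.984 and 4.0 ± 0.492 CPM in the same order (SD, n = 3). PDGFRA by itself separated all 4 groups, and no other tested marker did. FAP averaged 1.78 ± 0.234, 0.761 ± 0.161, 1.20 ± 0.472 and 0.960 ± 0.128 CPM in the combination, with tazemetostat, with ipatasertib and with DMSO, and passed against DMSO in the combination alone (edgeR adjusted p = 0.00794). TAGLN lay between 2.13 and 4.31 CPM over the 12 libraries and passed in no comparison with DMSO. Of the 5 markers tested, 4 were higher in the combination, 3 with tazemetostat and 1 with ipatasertib, and 0 were lower. These are 80%, 60% and 20% of 5 genes, where 64.4%, 47.2% and 47.1% of all genes passed. LUM, a proteoglycan of fibrils, had no read in ipatasertib or DMSO and averaged 1.84 ± 0.641 CPM in the combination and 2.30 ± 0.0144 with tazemetostat. LUM and ACTA2 are both among the 5 tested, and passed the filter only through the groups with tazemetostat. ACTA2 averaged 0.930, 0.555, 0.406 and 0.267 CPM in the combination, with tazemetostat, with ipatasertib and with DMSO. The shares of the 5 carry the filter limit. DCN, THY1 and POSTN had no read in ipatasertib or DMSO and at most 0.329 CPM on average elsewhere, and PDGFRB averaged at most 0.10 CPM in any group. The 6 endothelial markers took 22.0 to 24.0 CPM in the combination, 13.3 to 16.2 with tazemetostat, 30.0 to 31.6 with ipatasertib and 20.6 to 21.0 with DMSO. Most of it was KDR, which averaged 18.8, 13.6, 29.3 and 19.9 CPM in the same order. CDH5 differed, averaging 3.82, 0.472, 0.923 and 0.150 CPM, and VWF averaged 0.355, 0.617, 0.359 and 0.254 CPM. The 4 chondrocyte markers took 507 to 544, 361 to 398, 552 to 573 and 447 to 490 CPM in the same order, nearly all of it SOX9, which epithelial cells also express. The 11 epithelial and basal markers went both ways: 3 were higher and 7 lower in the combination than with DMSO, 4 higher and 4 lower with tazemetostat, and 2 higher and 7 lower with ipatasertib, where 64.4%, 47.2% and 47.1% of all genes passed. KRT5 had the lowest log2 fold change of the 11 in the combination, at -1.96 (edgeR adjusted p = 4.4e-16), and EGFR was higher there, at 1.07 (edgeR adjusted p = 4.72e-10). VIM, an intermediate filament of mesenchymal and basal cells, averaged 62.7 ± 5.12 CPM in the combination, 59.5 ± 2.20 with tazemetostat, 16.7 ± 0.903 with ipatasertib and 20.3 ± 1.46 with DMSO (SD, n = 3), and so was high in both groups with tazemetostat. The part of these markers' changes in the collagen results was not tested.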

How the data were processed

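Poly(A) RNA of 12 MDA-MB-468 libraries, 4 groups of 3, was measured. The values used are read counts that the authors deposited, 1 table per library, with genes named by symbol. STAR, SAMtools, HTSeq, DESeq2 and build hg19 are listed in the submitters' processing notes without versions; no source used here names the annotation, the use of strand or the sequence of steps. Lines naming no gene were left out of library sizes and tests; reads without a feature were 18.2% to 26.2% of a library's counted total. A deposited table of normalized values was not used. In R 4.3.3, edgeR 4.0.16 was run on all genes: filterByExpr (minimum count 10), TMM factors, 1 mean per group, robust quasi-likelihood tests with 8 residual degrees of freedom, and Benjamini-Hochberg adjustment over 14571 genes at 0.05. The SE is the log2 fold change divided by the square root of F. Floors of 3 counts and 95% intervals cover counting error only. Values in every library are given for collagen genes past the threshold in at least 1 of 6 comparisons with at least 1 CPM in the highest group, or with no read in a group; of other lists, examples are among the called members with the largest changes and SERPINH1 besides. The comparisons set every treatment against DMSO and the combination against both single drugs, besides testing the interaction. Other settings were DESeq2 1.42.0, RLE factors, totals without factors, no filter, 50 counts in 3 libraries, the 2 groups alone, a replicate block, each library left out and, added after seeing the data, no A libraries. The procedure was tested on simulated counts. Members, classes and lists were chosen with earlier results of these data known.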

Additional observations from a re-analysis of the deposited data

Results flagged for a closer look

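For 3 collagen genes the change with tazemetostat in cells that also received ipatasertib differed from the change in cells that did not, by edgeR's test of the interaction. For COL4A5 the interaction was -0.51 ± 0.12 on the log2 scale (edgeR adjusted p = 0.00967), and it passed in every alternative setting run. For COL18A1 it was -0.36 ± 0.12 (edgeR adjusted p = 0.0486). For COL12A1 it was 0.46 ± 0.15 (edgeR adjusted p = 0.0412). The COL18A1 call ended in 11 of 19 alternative settings and the COL12A1 call in 12.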

How the results depend on the processing

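Of 79 combinations of a collagen gene and a comparison that passed, 61 passed in every alternative setting that tested the gene. In at least 1 setting 18 did not, and 0 turned direction. Settings that did not test a gene were not counted for it, as with low genes under the stricter filter. With a filter of 50 counts in 3 libraries only 14 collagen genes were tested, and those called numbered 12 for the combination against DMSO, 11 for tazemetostat, 6 for ipatasertib and 5 for the combination against tazemetostat, where 8278, 5968, 6492 and 6261 of 12385 genes passed. Without a filter 42 collagen genes were tested. Those called against DMSO numbered 29 for the combination, 25 for tazemetostat and 10 for ipatasertib, where 10076, 7408 and 7029 of 19877 genes passed. With a replicate block, 1 collagen gene passed the interaction in place of 3, and over all genes 1012 in place of 1744. The letters were not taken as pairs, since in no 2 groups did all 3 same-letter correlations exceed 0.1. With the B and C libraries alone, 5 collagen genes passed the interaction, COL4A2 and COL4A6 besides, and 5452 of all genes. Leaving out single libraries, the interaction called 1 to 4 collagen genes and 674 to 3681 of all genes. The cause of these moves was not tested, apart from the smaller number of genes tested under the stricter filter. Depth limits the 15 untested genes, which had at most 55 reads over 12 libraries.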

Other observations

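Other genes of the collagen surroundings showed other patterns. LOXL4, a lysyl oxidase relative, averaged 0.697 ± 0.188 CPM in the combination, 0.189 ± 0.0343 with tazemetostat, 0.757 ± 0.271 with ipatasertib and 0.116 ± 0.0959 with DMSO (SD, n = 3). Its log2 fold change against DMSO was 2.49 ± 0.53 in the combination (edgeR adjusted p = 0.000303) and 2.60 ± 0.48 with ipatasertib (edgeR adjusted p = 0.000143). LOXL4, and NID2 below, reached the filter level only in the groups with ipatasertib, so their p-values against DMSO carry the filter limit. NID2, a nidogen that links laminin to type IV collagen, averaged 1.03 ± 0.257, 0.504 ± 0.129, 1.15 ± 0.175 and 0.491 ± 0.0893 CPM in the same order, and rose by 1.06 ± 0.31 in the combination (edgeR adjusted p = 0.00558) and by 1.23 ± 0.28 with ipatasertib (edgeR adjusted p = 0.00115). HSPG2, the perlecan of basement membranes, averaged 12.5 ± 1.08, 11.5 ± 1.53, 9.34 ± 1.22 and 6.29 ± 0.146 CPM, and rose in all 3 treated groups, by 0.99 ± 0.12 in the combination (edgeR adjusted p = 3.83e-07), 0.88 ± 0.12 with tazemetostat (edgeR adjusted p = 2.95e-06) and 0.57 ± 0.12 with ipatasertib (edgeR adjusted p = 0.000576).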
